A study of Mus musculus with 12 samples.

Results

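The genes described here were the chemokines and chemokine receptors of murine embryonic fibroblasts (MEFs), connective tissue cells grown from embryos. They were chosen by name: a probe set was taken when its only gene symbol was Ccl, Ccr, Cxcl or Cxcr followed by a digit, or was Cx3cl1, Cx3cr1 or Ackr3. This gave 47 of the 16755 probe sets, each of a different gene, of which 30 were ligands and 17 were receptors. The ligands were 17 of the CC class, 12 of the CXC class and 1 of the CX3C class, and the receptors were 9 of the CC class, 6 of the CXC class, 1 of the CX3C class and the atypical receptor Ackr3. Another 2 probe sets carried a chemokine symbol together with a second one (Ccl6 with Ccl9, and Cxcl3 with Cxcl15) and were left out.

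The study asked which genes depend on Pak1, a p21-activated kinase, with and without DNA damage. The cells were Pak1 knockout MEFs treated with ionizing radiation (KO-IR), untreated Pak1 knockout MEFs (KO), wild-type MEFs treated with ionizing radiation (WT-IR) and untreated wild-type MEFs (WT), with 3 arrays in each of the 4 groups. The knockout is a deletion in the whole body of C57Bl6J mice, the WT cells have the same background, and all cells were taken at embryonic day 13.5 and immortalized with the SV40 T antigen, which every group therefore carries. The irradiation came from a caesium source. No source used here gives its dose or the time to harvest. How many embryos or immortalized lines stand behind each genotype is likewise unstated, so a difference between the genotypes and a difference between lines cannot be told apart. The arrays are labelled as biological replicates with no word on separate cultures, so the p-values reflect the spread of these arrays alone, which may be technical. Pak1 itself was not analysed here, and the genotype of each array rests on its label. The paper shows a western blot of the protein in the WT and KO MEFs. It also lists the Y-linked gene Eif2s3y, with Ddx3y and Uty, among the genes most reduced in KO MEFs. The part of such a difference in the chemokine results was not tested.

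Each value is a log2 signal that the authors centred on the median of the 12 arrays for that probe set, so that 0 is the middle of the series and no absolute level is known. Levels of different genes can for this reason not be set against each other, and a change in the share of cells making a chemokine cannot be told apart from a change in the RNA per cell. Array medians lay between -0.02 and 0.02 and array SDs between 0.24 and 0.29. A probe set is called here when its difference between groups was at least 2-fold with an adjusted p under 0.05 in limma, adjusted over all 16755 probe sets. The labelled cell type could not be checked by level. Of 13 fibroblast markers measured, 4 were called in KO vs WT (30.8%, against 4.42% of all probe sets). Thy1 was higher in KO MEFs (log2 fold change 1.29) and Prrx1, Pdgfra and Col3a1 were lower (-2.10, -2.33 and -1.14). Of markers of other cells, 1 of 12 for leukocytes and macrophages (8.33%, Csf1r, -2.26), 1 of 8 for epithelium (12.5%, Krt19, 2.76) and 0 of 10 for endothelium were called in KO vs WT. For lists of this size, 0 or 1 is near the share of all probe sets. Of the endothelial markers 2 had an unadjusted p under 0.05 in limma. By the adjusted p alone 2 passed in limma, both higher in KO MEFs (20.0%, against 43.2% of all probe sets). In the t-test of the methods 2 passed the adjusted p and 0 were called. After irradiation the same genes were called in KO-IR vs WT-IR, where 5.06% of all probe sets were called. They were Thy1 at 1.32, Prrx1 at -2.12, Pdgfra at -2.74, Col3a1 at -1.33, Csf1r at -2.37 and Krt19 at 2.97. The part of such marker differences in the chemokine results was not tested.

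Chemokines are small secreted or membrane-anchored proteins that steer migrating cells along a gradient. They bind receptors that span the membrane and signal through inhibitory G proteins to phosphoinositide kinases, phospholipases and the small GTPases of the Rac family, whose effectors include the p21-activated kinases. Fibroblasts are a source of ligands rather than a main site of receptors: they release neutrophil and monocyte attractants when NF-kB is switched on by cytokines or microbial products, release Cxcr3 ligands after interferon, and make Cxcl12 without a stimulus.

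The promoters of Cxcl10 and Cxcl9, and of Cxcl1 and Cxcl2, both pairs of close neighbours on chromosome 5, are shown because the genes of a pair behaved differently: Cxcl10 and Cxcl2 were higher in KO MEFs, Cxcl1 was lower, and Cxcl9 passed no test. They run from 250 bases before to 50 after the RefSeq start in GRCm38.p6, in the direction of transcription. Capitals mark matches to the interferon-stimulated response element core (GAAANNGAA) or to the NF-kB consensus, searched on both strands. Cxcl10 and Cxcl9 lie on the minus strand at chr5:92348840-92349139 and chr5:92328030-92328329, and Cxcl1 and Cxcl2 on the plus strand at chr5:90890995-90891294 and chr5:90903649-90903948.
Cxcl10: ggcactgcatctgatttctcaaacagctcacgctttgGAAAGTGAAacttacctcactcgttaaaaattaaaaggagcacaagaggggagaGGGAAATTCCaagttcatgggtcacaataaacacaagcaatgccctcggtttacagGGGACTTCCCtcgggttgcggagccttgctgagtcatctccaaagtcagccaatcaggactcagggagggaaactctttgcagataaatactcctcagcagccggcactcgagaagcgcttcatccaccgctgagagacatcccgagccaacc
Cxcl9: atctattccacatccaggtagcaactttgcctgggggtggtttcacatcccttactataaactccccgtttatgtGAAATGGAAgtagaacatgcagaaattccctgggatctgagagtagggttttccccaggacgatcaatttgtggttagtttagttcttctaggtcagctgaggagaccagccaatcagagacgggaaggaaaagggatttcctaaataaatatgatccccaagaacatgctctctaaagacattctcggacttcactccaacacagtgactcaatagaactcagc
Cxcl1: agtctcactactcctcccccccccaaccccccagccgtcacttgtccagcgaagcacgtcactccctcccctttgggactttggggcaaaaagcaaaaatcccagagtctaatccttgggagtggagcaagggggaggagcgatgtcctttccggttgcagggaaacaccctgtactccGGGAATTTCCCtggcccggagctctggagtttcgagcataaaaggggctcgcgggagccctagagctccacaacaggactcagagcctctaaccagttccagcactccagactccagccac
Cxcl2: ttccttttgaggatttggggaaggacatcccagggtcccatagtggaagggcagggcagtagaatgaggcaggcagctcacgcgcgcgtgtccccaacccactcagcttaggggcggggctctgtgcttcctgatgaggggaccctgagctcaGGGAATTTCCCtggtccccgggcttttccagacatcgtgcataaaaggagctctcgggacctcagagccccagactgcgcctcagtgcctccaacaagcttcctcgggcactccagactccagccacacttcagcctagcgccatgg
In the Cxcl10 promoter the interferon element core matched at -213 to -205 from the start, and the NF-kB consensus matched at -159 to -150 and at -103 to -94. The Cxcl9 promoter held an interferon element core alone, at -175 to -167. Cxcl1 and Cxcl2 each held a pair of overlapping NF-kB matches in the same run of letters, at -71 to -61 in Cxcl1 and at -97 to -87 in Cxcl2. Cxcl1 and Cxcl2 held the same marked letters, and Cxcl1 was lower and Cxcl2 higher in KO MEFs. The interferon element cores of Cxcl10 and Cxcl9 differed at the free positions of the motif. A link between the matches and the differences was not tested.

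Promoters were at hand for 33 of the 47 genes. The interferon element core was in the promoters of 7 of them (Ccl1, Ccl3, Ccr2, Cxcl9, Cxcl10, Cxcl14 and Cxcr1) and in 8.56% of 32851 promoters of all genes. The NF-kB consensus was in those of 7 (Ccl9, Ccl20, Ccr3, Ccr6, Cxcl1, Cxcl2 and Cxcl10) and in 4.51% of all promoters. Cxcl10 was the only one of these genes that held both. A match describes letters in this window and shows no binding.

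In KO vs WT, 8 of the 47 genes were called (17.0%, against 4.42% of all probe sets): Cxcl10, Cxcl16 and Ccl5 were higher in KO MEFs, and Cxcl1, Cxcl5, Ccl7, Ccl9 and Ccl25 were lower. Of all probe sets 2.44% were called higher and 1.98% lower. All 8 were among the 30 ligands. Whether ligands and receptors differed in this was not tested. Without the fold threshold the family stood below the table as a whole: 15 of 47 had an adjusted p under 0.05 (31.9%, against 43.2% of all probe sets), 8 higher and 7 lower, where the shares of all probe sets were 21.5% and 21.7%. The arrays of KO and WT did not overlap for 18 of 47 genes (38.3%, against 51.1%). The median size of the log2 fold change was 0.10 over the 47 genes and 0.13 over all probe sets.

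After irradiation 7 of the 47 genes were called in KO-IR vs WT-IR (14.9%, against 5.06% of all probe sets). Cxcl10, Cxcl16 and Ccl5 were higher in KO-IR MEFs, and Cxcl1, Cxcl5, Cxcl12 and Ccl25 were lower. Of all probe sets 2.96% were called higher and 2.09% lower. By the adjusted p alone 16 of 47 passed (34.0%, against 44.6%), 9 higher (23.4% of all probe sets) and 7 lower (21.2%). The arrays did not overlap for 17 (36.2%, against 51.8%). The comparison of KO-IR with WT-IR uses other arrays than that of KO with WT, from cells of the same genotypes.

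**Figure D1:**
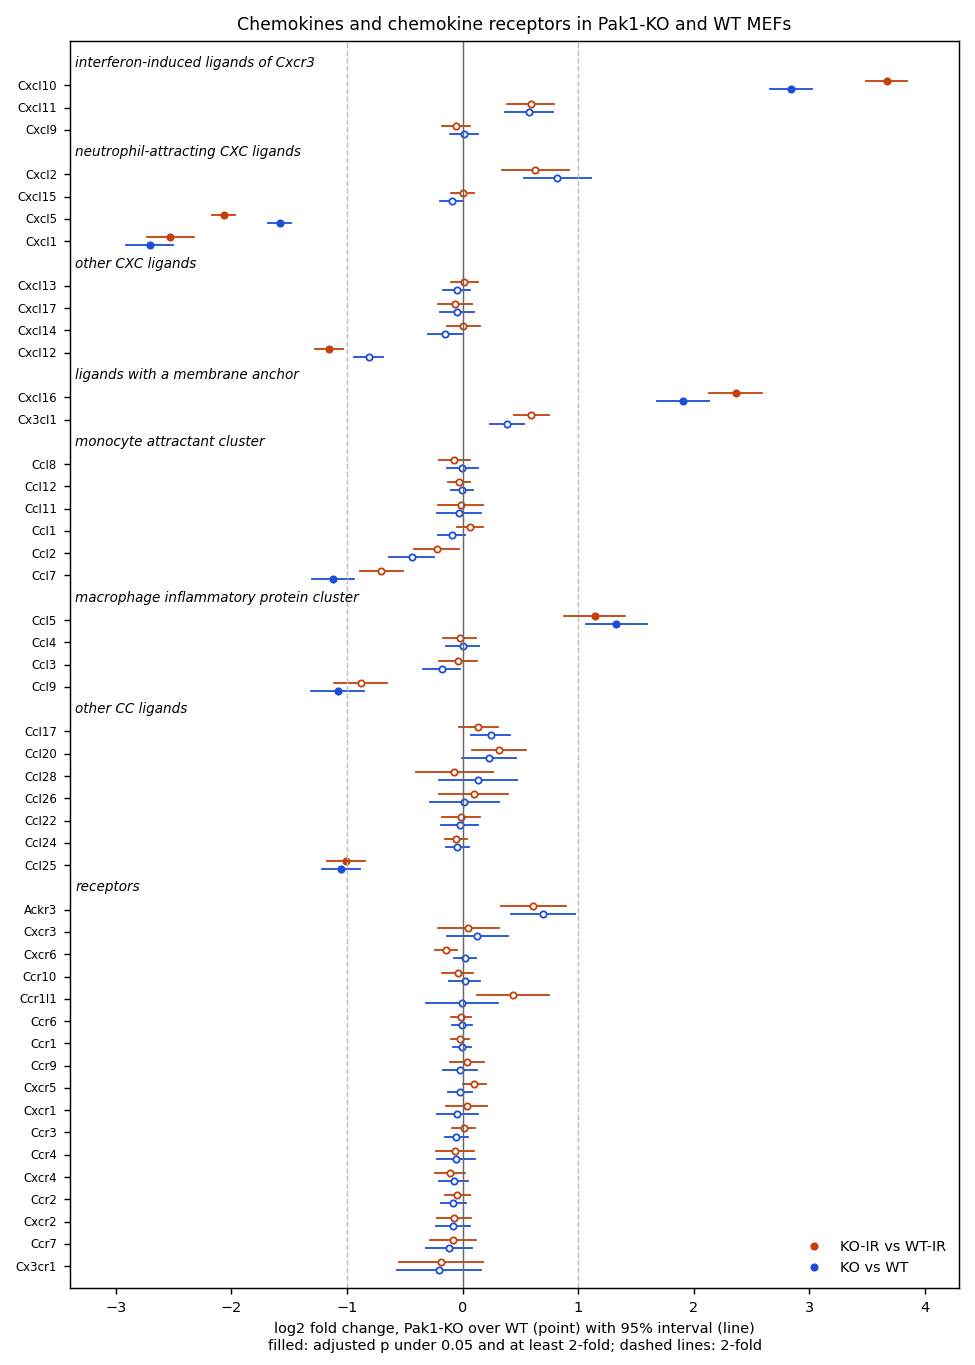
Log2 fold change of each of the 47 genes in KO-IR vs WT-IR (red) and KO vs WT (blue), with 95% intervals from limma, grouped by role. Filled points are called, and the 17 receptors hold only open points, the highest of them Ackr3 at 0.61 and 0.70.

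The interferon-induced ligands of Cxcr3, which draw activated T cells and natural killer cells, were led by Cxcl10. Cxcl10 had log2 values of 2.43, 2.48 and 2.47 in KO-IR MEFs, 1.07, 1.07 and 1.37 in KO MEFs, -1.07, -1.28 and -1.27 in WT-IR MEFs and -1.61, -1.64 and -1.75 in WT MEFs. All 4 groups were apart from each other, in the order KO-IR, KO, WT-IR and WT from high to low. The difference was 7.17-fold in KO vs WT (log2 2.84 ± 0.08, SE, adjusted p = 8.5e-11 in limma) and 12.7-fold in KO-IR vs WT-IR (3.67 ± 0.08, adjusted p = 9.4e-12).

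Cxcl11 binds the same receptor, and RefSeq lists it as a transcribed pseudogene in the C57BL/6J reference. It had log2 values of 0.11, 0.29 and 0.28 in KO-IR MEFs, 0.15, 0.33 and 0.47 in KO MEFs, -0.37, -0.48 and -0.24 in WT-IR MEFs and -0.29, -0.38 and -0.11 in WT MEFs. Every Pak1 knockout array was above every WT array, with no gap between irradiated and untreated cells of a genotype. Its log2 fold change was 0.58 in KO vs WT (adjusted p = 0.00027) and 0.59 in KO-IR vs WT-IR (adjusted p = 0.00022), which is under 2-fold. Cxcl9, the remaining ligand of this receptor and 1 coding gene away from Cxcl10, was at 0.01 (95% interval -0.11 to 0.13) and -0.06 (-0.18 to 0.06). A 2-fold difference in signal lay outside both intervals. With no absolute level known, whether Cxcl9 was above background cannot be said, so a difference in its RNA is not excluded. The receptor Cxcr3 was at 0.13 (-0.14 to 0.39) and 0.05 (-0.22 to 0.31).

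The neutrophil-attracting ligands split in direction. Cxcl1 and Cxcl5 were called lower in KO MEFs, Cxcl2 was higher at under 2-fold, and Cxcl15, a ligand best known from lung epithelium, passed no test. Cxcl1 had log2 values of -1.40, -1.18 and -1.11 in KO-IR MEFs, -1.56, -1.53 and -1.28 in KO MEFs, 1.25, 1.36 and 1.29 in WT-IR MEFs and 1.35, 1.28 and 1.11 in WT MEFs. The genotypes stood far apart, and within each genotype the irradiated and untreated arrays overlapped. Cxcl1 was 6.54-fold lower in KO vs WT (log2 -2.71 ± 0.09, SE, adjusted p = 3.5e-10 in limma) and 5.77-fold lower in KO-IR vs WT-IR (-2.53 ± 0.09, adjusted p = 5.6e-10).

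Cxcl5 had log2 values of -1.37, -1.27 and -1.23 in KO-IR MEFs, -0.75, -0.75 and -0.84 in KO MEFs, 0.75, 0.82 and 0.76 in WT-IR MEFs and 0.76, 0.80 and 0.83 in WT MEFs. The irradiated knockout arrays lay below the untreated ones, while WT-IR and WT overlapped. Cxcl5 was 2.99-fold lower in KO vs WT (-1.58 ± 0.04, adjusted p = 7.7e-11) and 4.19-fold lower in KO-IR vs WT-IR (-2.07 ± 0.04, adjusted p = 7.6e-12). Cxcl2 had log2 values of 0.28, 0.06 and 0.38 in KO-IR MEFs, 0.16, 0.49 and 0.42 in KO MEFs, -0.59, -0.06 and -0.53 in WT-IR MEFs and -0.46, -0.45 and -0.49 in WT MEFs. Its genotypes did not overlap either, although replicate 2 of WT-IR came close to the knockout arrays. Its log2 fold change was 0.82 in KO vs WT (adjusted p = 0.00024) and 0.63 in KO-IR vs WT-IR (adjusted p = 0.0017). In the t-test of the methods Cxcl2 did not pass the adjusted p in KO-IR vs WT-IR, where Cxcl1 and Cxcl5 did. Cxcr2, the receptor that Cxcl1, Cxcl2 and Cxcl5 share, was at -0.09 (95% interval -0.23 to 0.06) and -0.07 (-0.22 to 0.07), and Cxcr1, which lies beside it, was at -0.05 and 0.04.

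**Figure D2:**
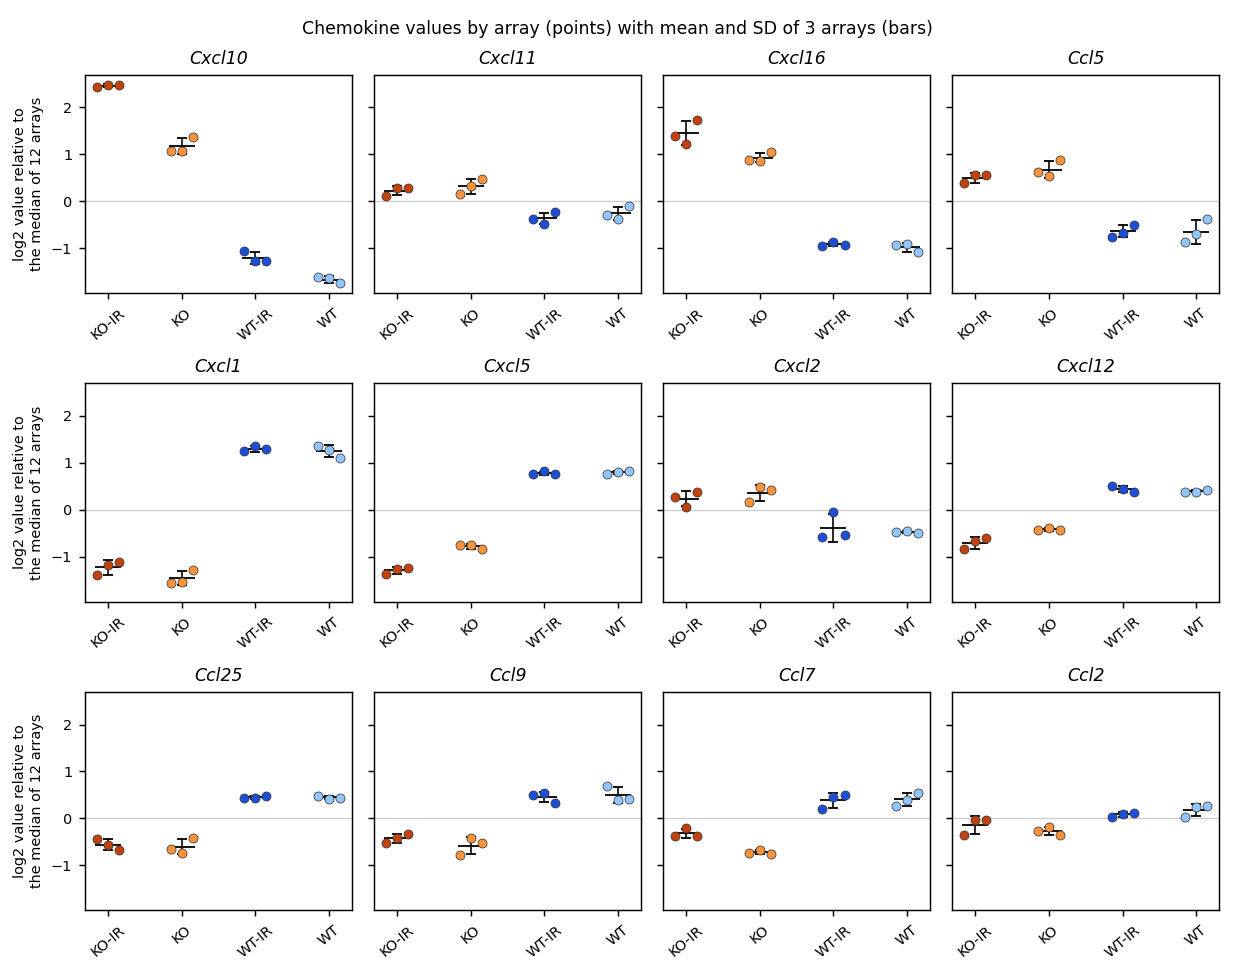
Log2 value of 12 ligands in each array (points), relative to the median of the 12 arrays, with the mean and SD of 3 arrays (bars) for KO-IR, KO, WT-IR and WT. Cxcl10, Cxcl16, Ccl5, Cxcl11 and Cxcl2 sit higher in both knockout groups and the other genes lower, except that 2 KO-IR arrays of Ccl2, at -0.03 and -0.05, come close to WT-IR and WT.

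Cxcl12, the ligand that holds blood stem cells in the marrow through Cxcr4, was the one gene called in KO-IR vs WT-IR alone. Its log2 values were -0.84, -0.67 and -0.61 in KO-IR MEFs, -0.42, -0.38 and -0.44 in KO MEFs, 0.50, 0.45 and 0.38 in WT-IR MEFs and 0.39, 0.38 and 0.42 in WT MEFs. The KO-IR arrays were the lowest, KO arrays came next, and WT-IR overlapped WT. The difference was 2.22-fold in KO-IR vs WT-IR (-1.15 ± 0.06, adjusted p = 7.2e-09 in limma) and 1.76-fold in KO vs WT (-0.81 ± 0.06, adjusted p = 1.7e-07). These differences were not shown to differ from each other (interaction -0.34 ± 0.08, adjusted p = 0.072). Of its receptors, Ackr3, which takes Cxcl12 up without G protein signaling, was higher in KO MEFs, and Cxcr4 passed no test (log2 fold change -0.08, 95% interval -0.21 to 0.05, in KO vs WT and -0.11, -0.24 to 0.02, in KO-IR vs WT-IR).

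Ackr3 had log2 values of 0.11, 0.32 and 0.14 in KO-IR MEFs, 0.51, 0.18 and 0.16 in KO MEFs, -0.50, -0.40 and -0.37 in WT-IR MEFs and -0.63, -0.11 and -0.50 in WT MEFs. All knockout arrays were above all WT arrays. Its log2 fold change was 0.70 in KO vs WT (adjusted p = 0.00067 in limma) and 0.61 in KO-IR vs WT-IR (adjusted p = 0.0016), under 2-fold in each. In the t-test of the methods Ackr3 did not pass the adjusted p in KO vs WT. The other CXC ligands, Cxcl13, Cxcl14 and Cxcl17, had log2 fold changes between -0.15 and 0.02 in these comparisons, and none of them had an adjusted p under 0.05. Cxcl13 guides B cells through Cxcr5, which was at -0.02 and 0.10.

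The ligands that are made as membrane-anchored proteins, Cxcl16 and Cx3cl1, were both higher without Pak1. Cxcl16, which also takes up oxidized lipoprotein, had log2 values of 1.38, 1.23 and 1.73 in KO-IR MEFs, 0.87, 0.87 and 1.04 in KO MEFs, -0.95, -0.87 and -0.94 in WT-IR MEFs and -0.94, -0.91 and -1.09 in WT MEFs. The KO-IR arrays were the highest, and WT-IR and WT overlapped. The difference was 3.75-fold in KO vs WT (1.91 ± 0.10, adjusted p = 2.3e-08 in limma) and 5.15-fold in KO-IR vs WT-IR (2.37 ± 0.10, adjusted p = 3.2e-09). Its receptor Cxcr6 was at 0.02 in KO vs WT (adjusted p = 0.72) and was lower in KO-IR vs WT-IR by a small amount (-0.14, adjusted p = 0.016).

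Cx3cl1 had log2 values of 0.09, 0.24 and 0.40 in KO-IR MEFs, 0.23, 0.24 and 0.22 in KO MEFs, -0.43, -0.34 and -0.29 in WT-IR MEFs and -0.09, -0.17 and -0.21 in WT MEFs. The genotypes did not overlap, and WT-IR lay below WT. Its log2 fold change was 0.39 in KO vs WT (adjusted p = 0.00053) and 0.60 in KO-IR vs WT-IR (adjusted p = 1.4e-05). For Cx3cr1, its receptor on monocytes and microglia, the values were -0.20 (95% interval -0.57 to 0.16) and -0.19 (-0.55 to 0.18). Ccl22 and Ccl17, ligands of Ccr4 that lie on either side of Cx3cl1 on chromosome 8, were at -0.03 and 0.24 in KO vs WT, of which Ccl17 passed the adjusted p (0.021). They were at -0.01 and 0.14 in KO-IR vs WT-IR, where neither passed.

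In a run of CC ligands on chromosome 11 (Ccl2, Ccl7, Ccl11, Ccl12, Ccl8 and Ccl1, with no coding gene between neighbours), differences were found at the end that holds Ccl2 and Ccl7. Ccl7, a ligand of Ccr2 and other receptors, had log2 values of -0.38, -0.21 and -0.37 in KO-IR MEFs, -0.73, -0.67 and -0.75 in KO MEFs, 0.21, 0.45 and 0.49 in WT-IR MEFs and 0.27, 0.40 and 0.54 in WT MEFs. The knockout arrays were below the WT arrays, and KO lay below KO-IR. Ccl7 was 2.18-fold lower in KO vs WT (-1.12 ± 0.08, adjusted p = 3.2e-07 in limma) and 1.63-fold lower in KO-IR vs WT-IR (-0.70 ± 0.08, adjusted p = 1.8e-05).

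Ccl2, the main ligand of Ccr2, had log2 values of -0.35, -0.03 and -0.05 in KO-IR MEFs, -0.26, -0.18 and -0.35 in KO MEFs, 0.03, 0.10 and 0.11 in WT-IR MEFs and 0.03, 0.24 and 0.26 in WT MEFs. The knockout arrays lay below the WT arrays with and without irradiation, by a narrow gap. Ccl2 was lower in KO MEFs (-0.44, adjusted p = 0.0013), whereas in KO-IR vs WT-IR its log2 fold change of -0.22 did not pass the adjusted p (0.060). Ccl11, Ccl12, Ccl8 and Ccl1 lay between -0.10 and 0.06 in these comparisons and passed neither. Ccr2 was at -0.08 (95% interval -0.19 to 0.03) in KO vs WT and at -0.05 (-0.15 to 0.06) in KO-IR vs WT-IR.

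A second run on chromosome 11 (Ccl5, Ccl9, Ccl6, Ccl3 and Ccl4, again with no coding gene between neighbours) held genes of opposite direction side by side. Ccl5, which draws T cells and monocytes, had log2 values of 0.38, 0.56 and 0.56 in KO-IR MEFs, 0.62, 0.54 and 0.87 in KO MEFs, -0.75, -0.67 and -0.50 in WT-IR MEFs and -0.87, -0.71 and -0.38 in WT MEFs. All knockout arrays were above all WT arrays. Ccl5 was 2.51-fold higher in KO vs WT (1.33 ± 0.12, adjusted p = 2.0e-06 in limma) and 2.21-fold higher in KO-IR vs WT-IR (1.14 ± 0.12, adjusted p = 6.5e-06).

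Ccl9, a ligand of Ccr1 and the next gene, had log2 values of -0.53, -0.41 and -0.33 in KO-IR MEFs, -0.79, -0.42 and -0.53 in KO MEFs, 0.49, 0.55 and 0.33 in WT-IR MEFs and 0.70, 0.39 and 0.41 in WT MEFs. The order of the genotypes was the reverse of that of Ccl5, again with no overlap. Ccl9 was 2.11-fold lower in KO vs WT (-1.08 ± 0.10, adjusted p = 3.3e-06), which fell just short of 2-fold without replicate 1 of KO (-0.98) or replicate 1 of WT (-0.98), and 1.84-fold lower in KO-IR vs WT-IR (-0.88 ± 0.10, adjusted p = 1.7e-05). Ccl3 and Ccl4 (macrophage inflammatory proteins) were at -0.18 and 0.00 in KO vs WT and at -0.04 and -0.02 in KO-IR vs WT-IR, and none of these passed the adjusted p. Ccr1 was at -0.01 (95% interval -0.09 to 0.07) and -0.03 (-0.10 to 0.05).

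**Figure D3:**
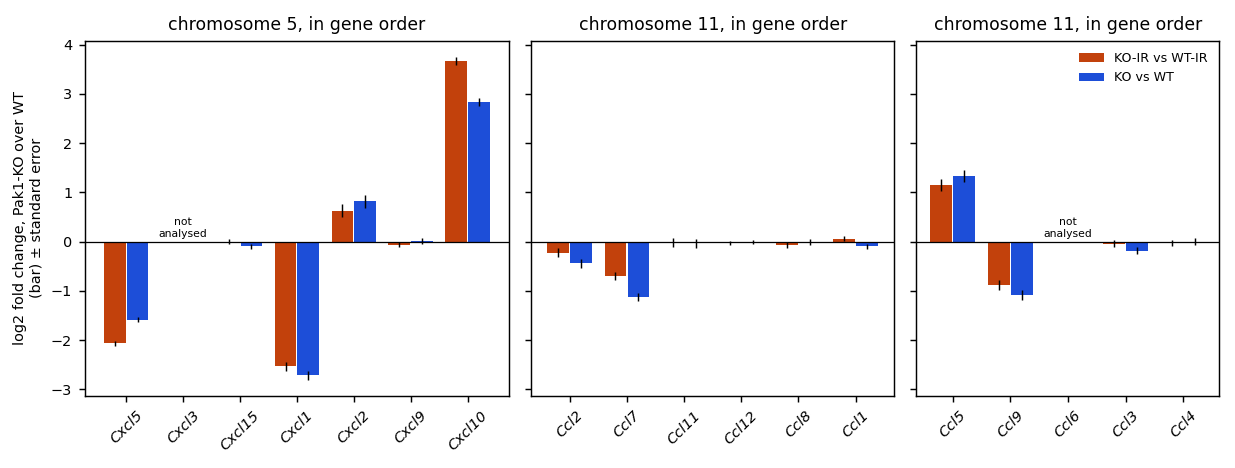
Log2 fold change (bars, ± standard error) in KO-IR vs WT-IR (red) and KO vs WT (blue) for clustered ligand genes of chromosomes 5 and 11, in their order along the chromosome, not to scale and without other genes between them. Cxcl1 beside Cxcl2, and Ccl5 beside Ccl9, lie on opposite sides of 0, and Ccl11 to Ccl1 lie near 0.

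Of the remaining CC ligands, Ccl25, which draws T cells to thymus and small intestine through Ccr9, was called lower in both comparisons. Its log2 values were -0.45, -0.57 and -0.67 in KO-IR MEFs, -0.66, -0.73 and -0.42 in KO MEFs, 0.43, 0.43 and 0.49 in WT-IR MEFs and 0.47, 0.42 and 0.44 in WT MEFs. The WT arrays lay close together, above all knockout arrays. The difference was 2.07-fold in KO vs WT (-1.05 ± 0.07, adjusted p = 2.2e-07 in limma) and 2.01-fold in KO-IR vs WT-IR (-1.01 ± 0.07, adjusted p = 2.7e-07). So close to the threshold, the call was lost without replicate 2 of KO (-0.99) and, after irradiation, without replicate 3 of KO-IR (-0.96) or of WT-IR (-0.99), with the adjusted p still passing. Ccr9 was at -0.02 (95% interval -0.17 to 0.13) and 0.04 (-0.11 to 0.18). Ccl20, the ligand of Ccr6, was higher in KO-IR vs WT-IR (0.32, adjusted p = 0.031 in limma) and at 0.23 in KO vs WT (adjusted p = 0.12). In the t-test of the methods Ccl20 did not pass the adjusted p in KO-IR vs WT-IR. Ccl22, Ccl24, Ccl26 and Ccl28 did not pass the adjusted p in these comparisons.

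None of the 17 receptors was called in any of the 5 contrasts of the study in limma, where the called share of all probe sets was 5.06% for KO-IR vs WT-IR, 4.42% for KO vs WT and 0.00597% to 0.149% for the others. For 17 genes, 0 is near these shares. Whether the receptor signals were above background cannot be said from centred values. The t-test of the methods called 0 in the 4 contrasts where it could be run. At an unadjusted p under 0.05 in limma there was 1 receptor in KO vs WT (5.88%, against 48.3% of all probe sets) and 3 in KO-IR vs WT-IR (17.6%, against 48.9%). Receptor log2 fold changes lay between -0.20 (Cx3cr1) and 0.70 (Ackr3) in KO vs WT, with a median size of 0.05. They lay between -0.19 (Cx3cr1) and 0.61 (Ackr3) in KO-IR vs WT-IR, with a median size of 0.07. By the adjusted p alone in limma, Ackr3 was higher in KO MEFs. In KO-IR vs WT-IR, Ackr3 and Ccr1l1, a gene close to Ccr1 in sequence and position, were higher and Cxcr6 was lower. In the t-test of the methods the adjusted p passed for 0 receptors in KO vs WT and for 1 in KO-IR vs WT-IR. Ccr1l1 had log2 values of 0.35, -0.24 and 0.32 in KO-IR MEFs, 0.19, 0.09 and -0.24 in KO MEFs, -0.36, -0.31 and -0.20 in WT-IR MEFs and -0.02, 0.02 and 0.06 in WT MEFs. Replicate 2 of KO-IR fell among the WT-IR arrays, so this difference (0.43, adjusted p = 0.026) came with overlapping groups, and in KO vs WT the value was -0.01 (adjusted p = 0.98).

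Irradiation on its own moved few of these genes. In WT-IR vs WT, 0 of 47 were called (0.00597% of all probe sets were), 6 had an unadjusted p under 0.05 and the t-test of the methods called 0. Cxcl10 was the single gene with an adjusted p under 0.05 (2.13% of the 47, against 2.48% of all probe sets), 1.38-fold higher in WT-IR MEFs (0.46 ± 0.08, adjusted p = 0.014 in limma). Of all probe sets 0.848% passed as higher and 1.64% as lower. Its WT-IR arrays were all above its WT arrays, and groups were apart in this way, in either direction, for 9 of the 47 genes (19.1%, against 28.6%). The adjusted p no longer passed with the t-test of the methods (0.13), without replicate 1 of WT-IR (0.062) and without replicate 3 of WT (0.070).

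In KO-IR vs KO, Cxcl10 was again the gene that was called (1 of 47, 2.13%, against 0.143% of all probe sets), 2.44-fold higher in KO-IR MEFs (1.29 ± 0.08, adjusted p = 3.2e-06). By the adjusted p alone 5 genes passed (10.6%, against 6.3%), 3 higher (3.38% of all probe sets) and 2 lower (2.92%), and for the same 5 the arrays of the groups did not overlap (10.6%, against 20.4%). Besides Cxcl10 these were Cxcl16 (0.52 ± 0.10, adjusted p = 0.013) and Ccl7 (0.40 ± 0.08, adjusted p = 0.015), which were higher in KO-IR MEFs, and Cxcl5 (-0.51 ± 0.04, adjusted p = 4.6e-05) and Cxcl12 (-0.29 ± 0.06, adjusted p = 0.0096), which were lower. With the t-test of the methods Cxcl10 kept an adjusted p under 0.05 (0.042), and Cxcl5 (0.061), Ccl7 (0.12), Cxcl12 (0.24) and Cxcl16 (0.31) did not. Cxcl12 (0.074) and Cxcl16 (0.084) did not pass either when KO-IR and KO were fitted alone. The adjusted p of Ccl7 no longer passed without replicate 1 of KO (0.056) or replicate 2 of KO-IR (0.063), nor that of Cxcl16 without replicate 1 (0.055) or replicate 2 (0.051) of KO.

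The interaction of genotype and irradiation, the response of KO minus the response of WT, asks whether the cells answered irradiation differently. No gene of the 47 was called in limma (0.149% of all probe sets were), 6 had an unadjusted p under 0.05, and 2 had an adjusted p under 0.05 (4.26%, against 1.37%), 1 above 0 (1.17% of all probe sets) and 1 below (0.203%). They were Cxcl10 (0.83 ± 0.12, 95% interval 0.57 to 1.08, adjusted p = 0.0033) and Cxcl5 (-0.49 ± 0.06, -0.62 to -0.35, adjusted p = 0.0020). Cxcl10 thus responded more in KO than in WT cells, and Cxcl5 fell in KO cells while its value in WT cells was -0.02 (-0.12 to 0.08). For Cxcl16 (0.46, adjusted p = 0.24), Ccl7 (0.42, adjusted p = 0.15) and Cxcl12 (-0.34, adjusted p = 0.072) the responses of the genotypes were not shown to differ.

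The size of the Cxcl10 response and of its genotype difference depended on the scaling of the arrays. After quantile normalization its log2 fold change was 0.81 in KO-IR vs KO, under 2-fold, and its interaction was 0.42, and both kept an adjusted p under 0.05. Under this scaling Cxcl10 was at 2.57 in KO vs WT and at 2.99 in KO-IR vs WT-IR, and both were still called. Cxcl16 was at 0.29 in KO-IR vs KO under this scaling (adjusted p = 0.063).

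**Figure D4:**
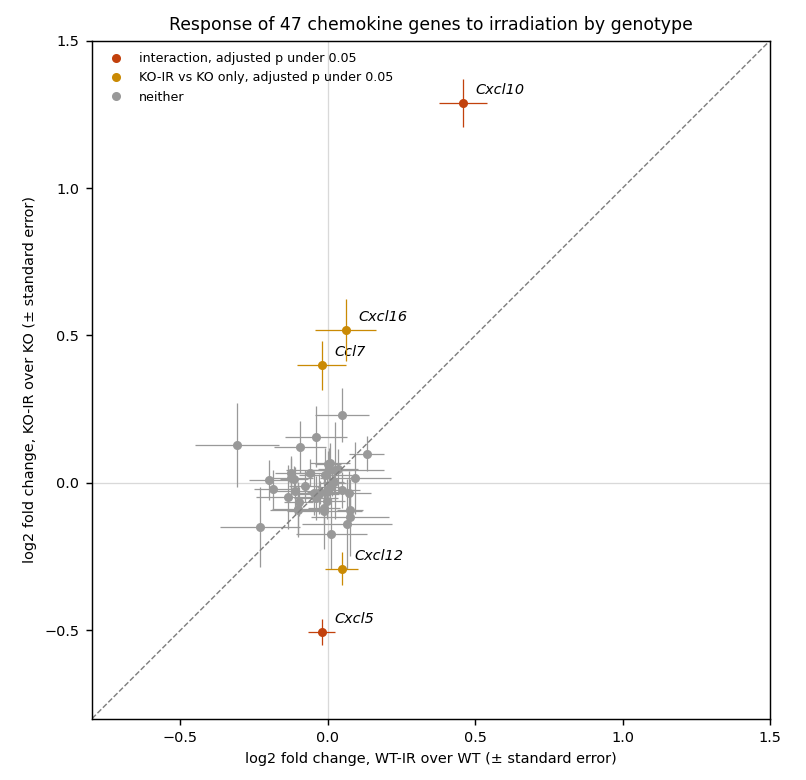
Log2 fold change with standard error of each of the 47 genes in KO-IR vs KO (vertical axis) against WT-IR vs WT (horizontal axis), with the line of equal response dashed. Cxcl10 (1.29 against 0.46) and Cxcl5 (-0.51 against -0.02), in red, passed the interaction test, and Cxcl16, Ccl7 and Cxcl12, in ochre, passed in KO-IR vs KO alone.

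Genes around the family were read from lists drawn up with earlier results of these data known, so their counts are a description. Of 18 measured genes of the wider chemokine system (other chemokines, atypical receptors and chemokine-like proteins), 0 were called in KO vs WT and 0 in KO-IR vs WT-IR, and the t-test of the methods called 0 in each. By the adjusted p alone 5 were higher and 2 lower in KO MEFs, and 6 higher and 0 lower in KO-IR MEFs, which is 38.9% and 33.3% of the list, against 43.2% and 44.6% of all probe sets, and 7 had an unadjusted p under 0.05 in each comparison. Their median log2 fold change was -0.02 in KO vs WT, as over all probe sets, and 0.07 in KO-IR vs WT-IR, against 0.01. Ppbp, a further neutrophil attractant of the CXC class, was higher like Cxcl2 and unlike Cxcl1 (0.75 in KO vs WT and 0.71 in KO-IR vs WT-IR). The chemokine-like factor Cklf (0.63 and 0.62) and the related membrane proteins Cmtm6 (0.77 and 0.88) and Cmtm7 (0.54 and 0.44) were also higher.

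In the chain that carries receptor signals, 2 of 33 measured genes were called in KO vs WT (6.06%, against 4.42% of all probe sets), both lower: Elmo1, which works with Dock proteins to load Rac (-2.71), and Plcb4, a phospholipase C (-1.77). By the adjusted p alone 16 were higher and 12 lower (84.8%, against 43.2%), with a median of 0.05. Plcb1, a second phospholipase (-0.87), and Arrb1, an arrestin that ends G protein signaling (-0.84), were lower at under 2-fold. In KO-IR vs WT-IR the values were -2.73 for Elmo1, -1.59 for Plcb4, -0.94 for Plcb1 and -0.63 for Arrb1.

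Of 21 measured genes of the NF-kB pathway 3 were called higher and 0 lower in KO vs WT (14.3%, against 4.42% of all probe sets), and by the adjusted p alone 10 were higher and 5 lower (71.4%, against 43.2%), with a median of 0.18. Ikbkg, the regulatory subunit of the kinase that frees NF-kB (1.06 in KO vs WT and 1.13 in KO-IR vs WT-IR), and Tlr4, the receptor for bacterial lipopolysaccharide (1.03 and 0.95), were among them. Tnfrsf1b, a receptor of TNF (0.76 and 0.83), and the NF-kB precursor Nfkb2 (0.65 and 0.78) were higher at under 2-fold. In KO-IR vs WT-IR 13 were higher and 4 lower by the adjusted p (81.0%, against 44.6%), with a median of 0.25, against 0.01 over all probe sets. In KO-IR vs KO 4 of the 21 passed the adjusted p in limma, all higher (19.0%, against 6.3%). There 12 had an unadjusted p under 0.05 and the t-test of the methods passed 1. In WT-IR vs WT 1 passed in limma, as lower (4.76%, against 2.48%). In the interaction 2 passed, both above 0 (9.52%, against 1.37%), and 1 after quantile normalization.

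Of 25 measured genes of interferon signaling and nucleic acid sensing, 4 were called higher and 0 lower in KO vs WT (16.0%, against 4.42% of all probe sets), and by the adjusted p alone 16 were higher and 4 lower (80.0%, against 43.2%), with a median of 0.26. The sensor of double-stranded RNA Ifih1 was at 1.59 in KO vs WT and 1.43 in KO-IR vs WT-IR, the sensor of cytosolic DNA Cgas at 1.40 and 1.36, and Sting1, which relays its signal, at 0.78 and 0.83. The chains of the receptor for interferon gamma were higher too, Ifngr1 at 0.83 and 0.93 and Ifngr2 at 0.50 and 0.77. In KO-IR vs WT-IR 14 were higher and 2 lower by the adjusted p (64.0%, against 44.6%), with a median of 0.28. Values of the 25 genes ran from -0.56 to 1.59 in KO vs WT and from -0.44 to 1.93 in KO-IR vs WT-IR. In KO-IR vs KO 4 of these 25 passed the adjusted p in limma (16.0%, against 6.3% of all probe sets). They were 1 higher (Ifit1, 0.74) and 3 lower (Ticam1, Gbp2 and Ifit2, between -0.32 and -0.19), all named after their values were seen. There 11 had an unadjusted p under 0.05 and the t-test of the methods passed 0. After quantile normalization 0 were higher and 3 lower by the adjusted p, so Ifit1 no longer passed. With arrays centred on their medians 1 was higher and 2 were lower. In WT-IR vs WT 0 of the 25 passed the adjusted p in limma (2.48% of all probe sets did), 5 had an unadjusted p under 0.05 and the t-test of the methods passed 0. In the interaction 0 of the 25 passed in limma (1.37% of all probe sets did), 5 had an unadjusted p under 0.05, and values ran from -0.36 to 0.83.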

How the data were processed

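RNA of SV40-immortalized MEFs was depleted of ribosomal RNA by the authors, hybridised to Affymetrix Mouse Exon 1.0 ST arrays and processed in Gene Spring GX. The deposited log2 values were centred by the authors so that each probe set has a median of 0 across arrays (within 5.0e-07) and ran from -3.30 to 3.37. No raw images were processed. The genome build of the array annotation is not given in the sources used here. Gene symbols came from the annotation of the array, where 14996 probe sets had 1 symbol, 1019 several and 740 none, and all 47 genes matched RefSeq by gene ID and symbol. The values hold no absolute signal. The number of arrays limits the precision.

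The limma package (3.58.1, R 4.3.3) was run on all 16755 probe sets with a mean per group, through lmFit and eBayes. Degrees of freedom were 8 residual and 3.48 prior. In each contrast the two-sided p-values of the whole table were adjusted together (Benjamini-Hochberg). The thresholds, an adjusted p of 0.05 and a fold change of 2, are those of the study's methods, which used an unpaired t-test. This was recomputed and is called the t-test of the methods. Values per array are given for genes called in any contrast or past the adjusted p in the interaction or an irradiation contrast, and for some further genes (Cxcl2, Cxcl11, Cx3cl1, Ackr3, Ccl2 and Ccr1l1) chosen after their values were seen. Receptors and ligands of described genes are named with their values, and of each pathway list the 4 genes with the smallest adjusted p in KO vs WT and in KO-IR vs WT-IR. The genes, lists and tests were chosen with earlier results of these data known. Replicate numbers did not pair the samples (correlations of deviations from group means between same-numbered arrays of -0.14 to 0.21). Promoters are those of RefSeq (GRCm38.p6), and plots were made with matplotlib 3.10.9 (Python 3.11.15). The fit was tested on simulated data.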

Additional observations from a re-analysis of the deposited data

Results flagged for a closer look

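The response to irradiation differed between the genotypes for 2 of the 47 genes, by the interaction test in limma. For Cxcl10 the response in KO cells exceeded that in WT cells by 0.83 on the log2 scale (adjusted p = 0.0033), with KO-IR above KO in all 3 arrays and WT-IR above WT in all 3. For Cxcl5 the response in KO cells minus that in WT cells was -0.49 (adjusted p = 0.0020), with KO-IR below KO in all 3 arrays and WT-IR overlapping WT.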

How the results depend on the processing

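Counts of called genes among the 47 depended on the fold threshold. Without it 15 genes passed for KO against WT, 16 for KO-IR against WT-IR, 1 for WT-IR against WT, 5 for KO-IR against KO and 2 for the interaction, and at 1.5-fold 13 passed for KO-IR against WT-IR and 1 for the interaction. Quantile normalization left 0 for KO-IR against KO. Leaving out each array in turn gave 7 to 8 called genes for KO against WT, 6 to 7 for KO-IR against WT-IR, 0 for WT-IR against WT, 1 for KO-IR against KO and 0 for the interaction. Genes called in a contrast were held to both thresholds there. In the irradiation contrasts and the interaction, genes under 2-fold were held to the adjusted p alone. Genes under 2-fold in KO against WT or KO-IR against WT-IR were not checked in this way. On this basis 413 alternative values kept their direction and their side of the threshold, 20 kept their direction and no longer passed, and 0 changed direction. By the adjusted p alone, the t-test of the methods passed 14 of the 47 for KO against WT, where limma passed 15. For KO-IR against WT-IR it passed 12, where limma passed 16. Among the results checked, calls were lost for Ccl25 and Ccl9, close to 2-fold, and for Cxcl10 in KO-IR against KO after quantile normalization (0.81). Among the same results, the adjusted p no longer passed for Cxcl10 in WT-IR against WT and for Ccl7, Cxcl12, Cxcl16 and Cxcl5 in KO-IR against KO. The cause was not tested.

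Arrays with the same replicate number shared only that number. With the replicate number as a block, the counts of called genes among the 47 were 8 for KO against WT, 7 for KO-IR against WT-IR, 0 for WT-IR against WT, 1 for KO-IR against KO and 0 for the interaction, and no call of a named gene changed. Filters on dim probe sets were not run, since the centred values hold no absolute signal.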
